A study of Mus musculus with 8 samples.

Results

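The comparison of ODNcap-F with Cap-F isolates the oligonucleotide cargo of a feed additive. Both groups were female BALB/c mice, bought at 4 weeks of age, that ate a powder feed with carbonate apatite particles for 70 days, were immunized with ovalbumin (OVA) on alum by intraperitoneal injection, and then inhaled an OVA aerosol until the day before the lungs were taken. The particles of ODNcap-F held a phosphorothioated class-B CpG-oligodeoxynucleotide (CpG-ODN), and those of Cap-F were made by the same procedure without it. The arrays were chosen by their sample titles, 2 ODNcap-F mice and 2 Cap-F mice, which is 4 of the 8 arrays of the series. The other 4 arrays were used as a reference for levels: 2 Ctrl-F mice, with standard feed and the same OVA treatment, and 2 NT mice, with standard feed and no OVA. All 8 arrays lay on 1 slide. ODNcap-F and Cap-F were both in row 2 and Ctrl-F and NT in row 1, so that a difference between rows does not enter the comparison of ODNcap-F with Cap-F, but for Ctrl-F and NT beside them the row cannot be told apart from the group. The animals are a model of allergic airway inflammation, and whole lung was used, so that fewer cells of a type and less RNA per cell cannot be told apart.

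Unmethylated CpG DNA is taken up into endosomes, where it engages Toll-like receptor 9 (TLR9), mainly on B cells, plasmacytoid dendritic cells and, in mice, macrophages. The receptor signals through the adaptor MyD88 to NF-κB and interferon regulatory factors, and its known outputs are interleukin (IL)-12, IL-6 and type I interferon. In allergic lungs the opposing programme is the type 2 response, in which IL-4, IL-5 and IL-13 drive eosinophils, mucous cells and the chitinase-like and resistin-like proteins of macrophages and epithelium.

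Intensities were background-subtracted spot signals, and all levels below are log2 intensities after quantile normalization over the 8 arrays, so that a difference of 1 is 2-fold. The scanner software classed 61.3% to 65.0% of the probes of an array as well above background, down to values between 3.61 and 4.18. The tissue label held: the alveolar type 2 surfactant gene Sftpc lay between 17.60 and 17.64, and the club cell gene Scgb1a1 between 17.52 and 17.64, on all arrays. More than 2-fold apart between the mice of a group were 713 probes in Cap-F and 692 in ODNcap-F, of the 37116 probes kept by the filter on background. Between the means of these groups 319 of the 28992 genes or unnamed transcripts tested were more than 2-fold apart. This count is by gene and between means of 2 mice, so it cannot be set against the counts by probe between single mice.

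Of 28992 genes or unnamed transcripts tested, 1 (0.00345%) passed a Benjamini-Hochberg adjusted p under 0.05 in limma with a change over 2-fold. This transcript, AK048705, has no gene name here. Its level was 4.59 and 4.54 in Cap-F and 1.89 and 1.89 in ODNcap-F, where the probe was not well above background. Ctrl-F at 1.89 and 1.88 and NT at 1.88 and 1.88 were not well above background either, so the probe was well above background in the Cap-F mice alone. AK048705 was thus lower in ODNcap-F by at least 1.36-fold (adjusted p = 0.000283), but the probe passed the filter through Cap-F alone, and values at the bottom of the scale set the small spread behind this p, so that it does not measure the variation between mice. It did not pass in limma with normexp background correction (adjusted p = 0.119), with an intensity trend (adjusted p = 0.104) or with only the 4 arrays compared (adjusted p = 0.145). The smallest two-sided p that an exact permutation test can give with 2 mice a group is 0.333, so the p-values below come from limma and measure mainly a gene's own spread within the 4 groups of 2 mice.

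At an unadjusted p under 0.05 in limma and over 2-fold, 95 genes (0.328%) were higher in ODNcap-F and 89 (0.307%) were lower, which is a nearly even split. These counts moved with single mice: the higher genes became 287 without Cap-F mouse 2 and 192 without ODNcap-F mouse 1, and the lower genes ranged from 134 to 212 when each of these 4 mice was left out. For 21% of all genes both ODNcap-F mice lay above both Cap-F mice, and for 24.7% both lay below. Counts of members of a gene list that did not overlap between the groups are read against these 2 shares. The median log2 difference over all genes was -0.0089. Of the 184 genes in both directions, 170 had a mean level under 8, and 3 lay above 13.

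**Figure D1:**
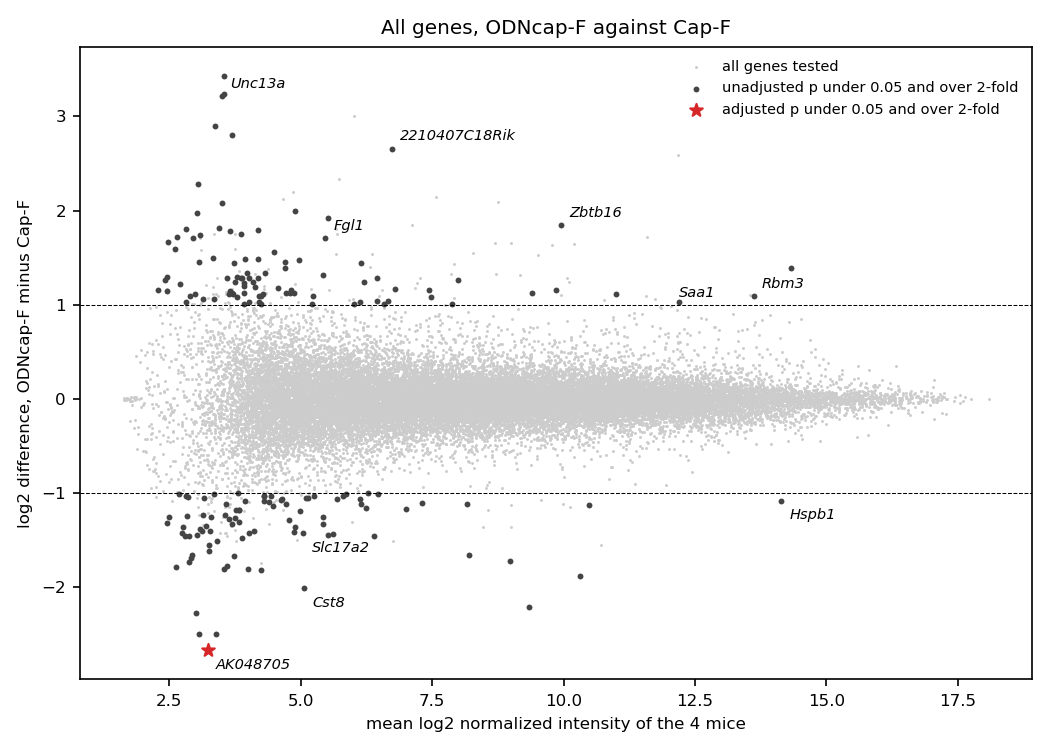
Log2 difference between ODNcap-F and Cap-F (means of 2 mice each) against the mean log2 normalized intensity of the 4 mice, 1 point per gene, with dashed lines at 2-fold. Genes past an unadjusted p are dark and the 1 gene past an adjusted p is a star. Of the 184 genes, 170 have a mean level under 8 and 3 lie above 13, among them Rbm3 and Hspb1.

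The 15 named genes with the largest differences upward in ODNcap-F were led by Unc13a. This gene, whose protein primes synaptic vesicles for release, read 1.90 and 1.88 in Cap-F and 5.45 and 4.77 in ODNcap-F. It was not well above background in Cap-F, Ctrl-F or NT, so that it was higher in ODNcap-F by at least 2.07-fold (adjusted p = 0.0707 in limma). The probe passed the filter through ODNcap-F alone. Values at the bottom of the scale in the other groups narrow the spread behind this p, so that it does not measure the variation between mice.

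2210407C18Rik, a gene of unassigned function, read 5.25 and 5.56 in Cap-F and 7.97 and 8.15 in ODNcap-F, a difference of 2.66 (SE 0.26, adjusted p = 0.143 in limma). NT was at 1.75 and 1.77 and Ctrl-F at 7.35 and 6.56, so that all OVA-challenged mice lay far above NT and Cap-F lay lowest among them. The long noncoding RNA 1700049E15Rik had the same order, at 1.77 and 1.76 in NT, 4.94 and 5.90 in Cap-F, 6.27 and 6.05 in Ctrl-F and 6.64 and 7.08 in ODNcap-F. With normexp background correction 2210407C18Rik passed, with a difference of 1.62 (adjusted p = 0.0432 in limma).

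Fgl1, a fibrinogen-like protein secreted by the liver in the acute phase and a ligand of the T cell receptor LAG-3, read 4.15 and 5.05 in Cap-F and 6.16 and 6.46 in ODNcap-F (difference 1.71, adjusted p = 0.188 in limma), and was well above background in 1 of the 2 Cap-F mice. Ctrl-F lay between, at 5.59 and 5.78, and NT at 2.53 and 2.47 was not well above background. Bhmt, which methylates homocysteine with betaine, and Pck1, the rate-limiting enzyme of gluconeogenesis, are also best known from liver. Neither was well above background in Cap-F, and they were higher in ODNcap-F by at least 1.22-fold and 1.61-fold. Krt15, a basal keratin, was not well above background in Cap-F either and was higher in ODNcap-F by at least 2.17-fold, mainly through mouse 2, at 6.09 against 4.44 in mouse 1. Others of this direction were Zbtb16 and Mcpt2, described below with their lists, and Gm609, Erich3, Acoxl, Xrra1 and Asb5. Erich3, well above background in 1 Cap-F mouse, read 3.51 and 4.28 in Cap-F and 5.91 and 5.88 in ODNcap-F. Gm609, which read 1.93 and 1.91 in Cap-F and 4.58 and 5.05 in ODNcap-F, was higher by at least 1.70-fold. Its probe passed the filter through ODNcap-F alone, as did that of Asb5.

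The 15 genes with the largest differences downward were led by Cst8, a cystatin best known from the male reproductive tract. It was well above background in 1 of the 2 ODNcap-F mice, and read 6.16 and 5.99 in Cap-F and 3.38 and 4.75 in ODNcap-F (difference -2.01, adjusted p = 0.216 in limma). Cst8 was highest in NT, at 8.04 and 8.18, and Ctrl-F was at 4.16 and 4.31, within the range of ODNcap-F. Gp9, a subunit of the platelet receptor for von Willebrand factor, was likewise highest in NT and higher in Cap-F than in the other challenged mice: 9.71 and 9.66 in NT, 7.64 and 7.54 in Cap-F, 5.94 and 6.78 in Ctrl-F, and 6.39 and 6.46 in ODNcap-F.

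Slc17a2, a sodium-phosphate cotransporter, read 5.86 and 5.66 in Cap-F and 4.34 and 4.33 in ODNcap-F, a difference of -1.42 (SE 0.13, adjusted p = 0.143 in limma). Here Cap-F lay near NT, at 5.82 and 5.80, and ODNcap-F near Ctrl-F, at 3.98 and 4.35, well above background in 1 of 2 Ctrl-F mice. Papln, an extracellular matrix protein, read 6.03 and 6.59 in Cap-F against 5.20 and 5.37 in ODNcap-F. The same side was taken by Trim43b, by the endogenous retroviral gene Erv3 (difference -1.44), by the tubulin glutamylase Ttll11, by the histone gene H2bc23, by Iqch and by the homeobox gene Hoxc9, and by 4 noncoding or pseudogene transcripts, Gm35933, 1700018B24Rik, Gm16982 and 1110058D11Rik. For Gm35933, at 8.97 and 9.08 in Cap-F and 7.17 and 7.56 in ODNcap-F, both Cap-F mice lay above all Ctrl-F and NT mice as well, and so they did for Ttll11, Iqch and Hoxc9. The probe of Iqch passed the filter through Cap-F alone. Erv3 had another probe, which overlapped between the groups, at 4.68 and 4.71 in Cap-F and 4.31 and 4.73 in ODNcap-F. Hspb1, the brightest of these 15, is described with the heat shock genes.

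None of these 30 genes passed an adjusted p under 0.05 in limma (range 0.0707 to 0.352), and all 30 kept their direction in every alternative that gave a value. The size did not hold: with normexp background correction, which adds an offset, the difference shrank by more than 1.5 times for 26 of the 30, and the 30 sizes lay between 0.20 and 1.75. Unc13a went to 0.56, Fgl1 to 0.58 and Slc17a2 to -0.57, while Zbtb16 was at 1.75 and Hspb1 at -1.11. The local-pooled-error test, in which the variance of a gene comes from genes of like intensity, called 101 genes (0.348% of those tested), and 17 of the 30 were among them, 8 higher and 9 lower, with Zbtb16, 2210407C18Rik and Hspb1 included. The 30 were chosen on this same contrast, so nothing follows from that share. The plot of the named genes by mouse shows the separation of the 4 mice beside the levels of Ctrl-F and NT.

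**Figure D2:**
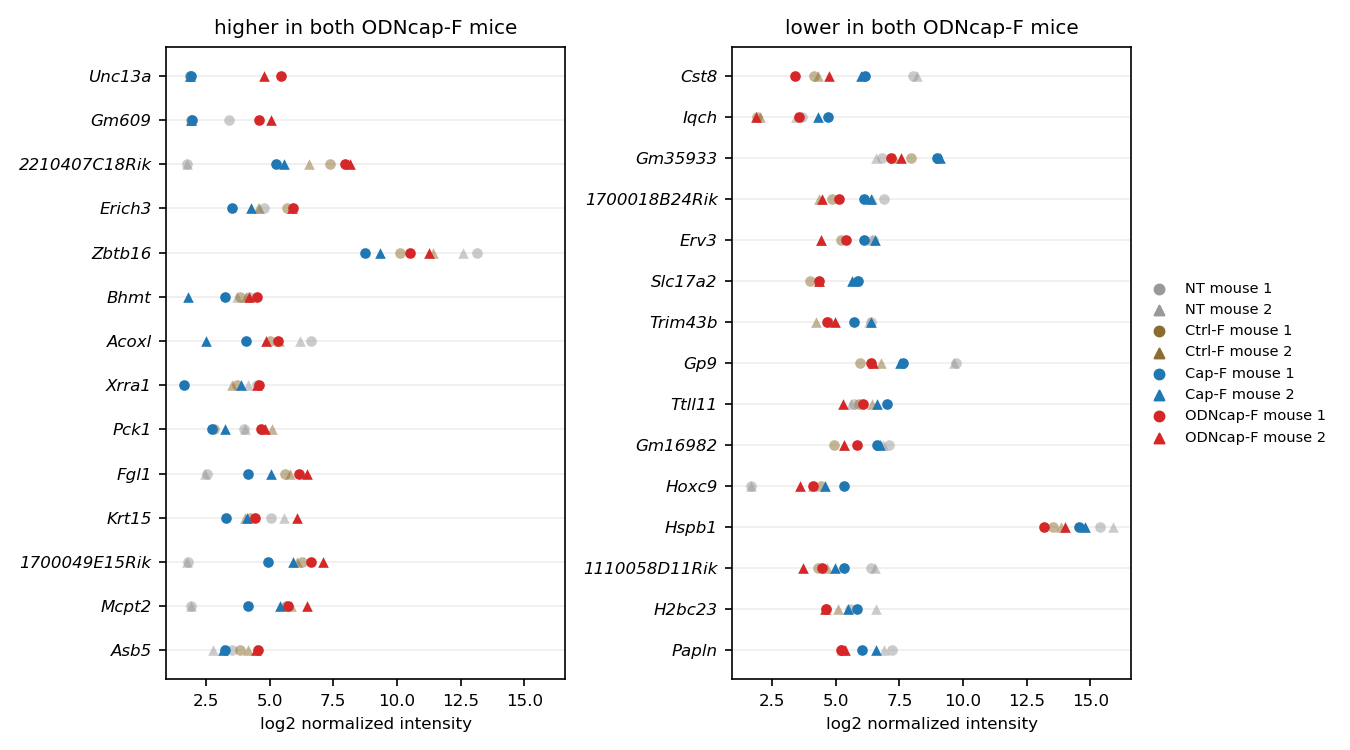
Log2 normalized intensity in each of the 8 mice (x axis) for the named genes with the largest differences each way between ODNcap-F (red) and Cap-F (blue), with Ctrl-F in brown and NT in grey and mice 1 and 2 of a group as circles and triangles. In every row both red symbols lie on 1 side of both blue symbols, which the choice of genes fixed, while Ctrl-F often lies near ODNcap-F.

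Of 20 tested neutrophil and acute phase genes, 7 lay above Cap-F in both ODNcap-F mice and 5 below, against 21% and 24.7% of all genes, and the median difference was 0.061. No member passed an adjusted p in limma (lowest 0.169). Above were the transcripts of the acute phase proteins Saa1, Saa2, Saa3, Orm1, Orm2 and Lcn2, and neutrophil elastase Elane by a margin within rounding (difference 0.04). These genes were grouped within the list after their values were seen. Saa1 and Saa2, the serum amyloid A proteins that ride on high-density lipoprotein, and Saa3, the form made outside the liver, are induced by IL-6, IL-1 and tumor necrosis factor. Saa1 read 11.71 and 11.38 in Cap-F and 12.74 and 12.34 in ODNcap-F (difference 0.99, SE 0.16, adjusted p = 0.188 in limma). Saa3 read 14.22 and 13.96 against 15.17 and 14.72, and Saa2 read 6.70 and 6.02 against 7.53 and 6.90. For all 3 genes the ODNcap-F mice lay also above both Ctrl-F mice, which were at 11.85 and 11.94 for Saa1. NT was at 8.05 and 8.05 for Saa1, so that OVA-challenged mice of every feed lay above it.

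The orosomucoids, plasma carriers of the lipocalin family, lay on the same side. Orm2 read 5.87 and 6.27 in Cap-F and 7.12 and 7.05 in ODNcap-F, a difference of 1.01 (SE 0.14, adjusted p = 0.169 in limma), with Ctrl-F at 6.63 and 6.61. Orm1 read 6.83 and 7.10 against 7.83 and 7.78. Lcn2, the iron-siderophore trap of epithelium and neutrophils, read 14.46 and 14.45 against 15.06 and 14.84. Il6, the cytokine that drives these genes in liver, lay on the same side, at 6.66 and 6.71 in Cap-F and 7.20 and 7.66 in ODNcap-F (both of its probes, adjusted p = 0.315 in limma), although Ctrl-F, at 7.39 and 7.61, was as high.

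The 5 genes of the list that lay below were Il1b, Csf3r, Retnlg, Camp and Ngp. Il1b, the inflammasome cytokine, read 10.67 and 10.69 in Cap-F and 10.24 and 10.21 in ODNcap-F (difference -0.46, SE 0.07, adjusted p = 0.180 in limma). Csf3r, the receptor for granulocyte colony-stimulating factor, read 15.79 and 15.77 against 15.62 and 15.55. The alarmins S100a8 and S100a9 were low in ODNcap-F mouse 2 alone, at 11.47 and 13.55, while mouse 1 was at 12.54 and 14.52, close to Cap-F. The chemokines Cxcl1, Cxcl2 and Cxcl5 overlapped between the groups.

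**Figure D3:**
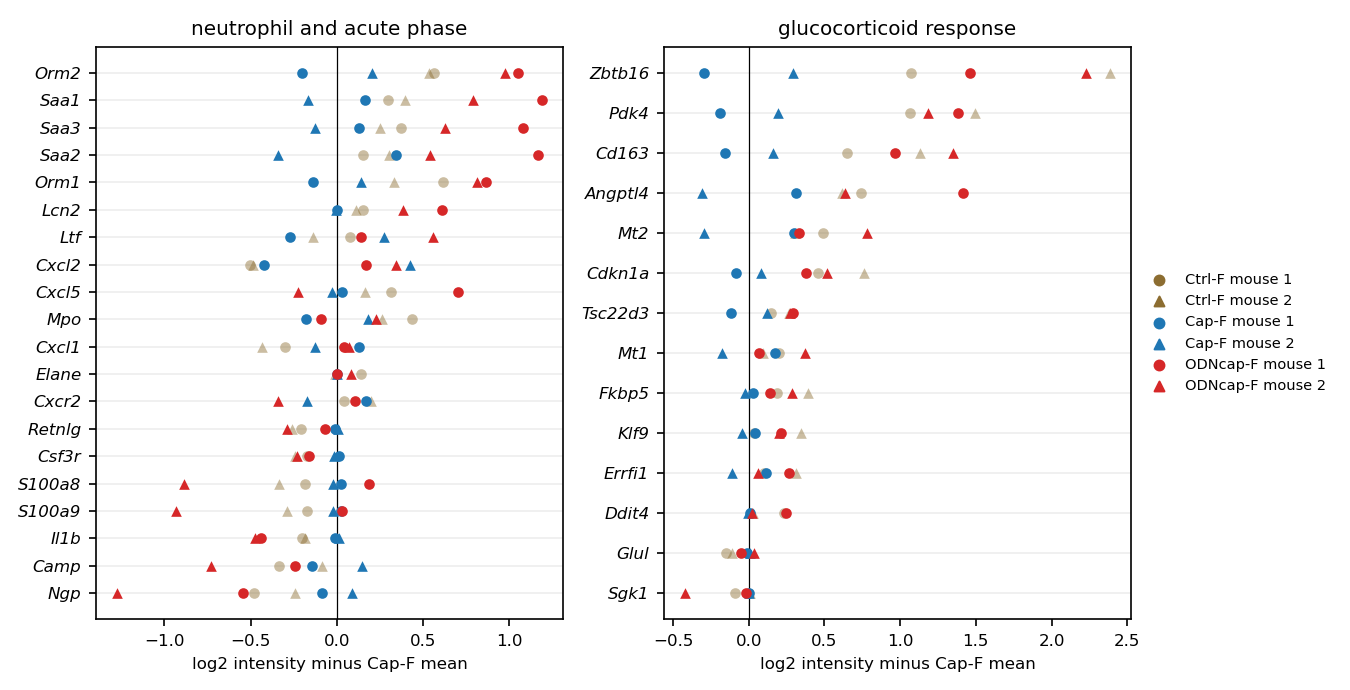
Log2 normalized intensity minus the gene's mean in Cap-F (x axis) for each Ctrl-F (brown), Cap-F (blue) and ODNcap-F (red) mouse, for all tested members of the neutrophil and acute phase list and of the glucocorticoid response list. Both ODNcap-F mice lie to the right of both Cap-F mice for Orm2, Saa1, Saa3, Saa2, Orm1 and Lcn2, and for 10 of the 14 glucocorticoid response genes.

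Genes known to be induced by glucocorticoids, the adrenal hormones that act through a nuclear receptor, lay higher in ODNcap-F for most members of their list. Of 14 tested, 10 lay above Cap-F in both ODNcap-F mice and 1, Sgk1, below, against 21% and 24.7% of all genes. The median difference was 0.25, and between 0.22 and 0.33 with any of the 4 mice left out. No member passed an adjusted p in limma (lowest 0.210), and 4 passed an unadjusted p over 2-fold: Zbtb16, Pdk4, Cd163 and Angptl4.

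Zbtb16, a transcription factor of innate-like lymphocytes, read 8.74 and 9.33 in Cap-F and 10.50 and 11.26 in ODNcap-F (difference 1.84, SE 0.50, adjusted p = 0.264 in limma). Pdk4, which turns off glucose oxidation, read 5.61 and 6.0 against 7.19 and 6.99, and Angptl4, a lipoprotein lipase inhibitor, 11.99 and 11.37 against 13.10 and 12.32. The haemoglobin scavenger receptor Cd163 read 9.11 and 9.43 against 10.23 and 10.62. Smaller differences were those of Tsc22d3, which encodes the glucocorticoid-induced leucine zipper (12.91 and 13.15 against 13.32 and 13.30), and Fkbp5, a chaperone of the receptor (10.24 and 10.19 against 10.35 and 10.50).

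Over the whole list of 14 genes Ctrl-F lay near ODNcap-F, and Cap-F was the low group of the challenged mice. The median over the members, relative to the Cap-F mean, was 0.22 and 0.33 in the Ctrl-F mice and 0.28 and 0.33 in the ODNcap-F mice. Among the 3 genes Zbtb16, Pdk4 and Cd163, Ctrl-F was at 10.11 and 11.42, 6.87 and 7.30, and 9.92 and 10.40. Against NT the 3 genes did not share an order, since NT was highest for Zbtb16 (13.15 and 12.60) and Pdk4 (8.87 and 8.20) and lowest for Cd163 (7.61 and 7.33).

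Immediate early genes, which are transcribed within minutes of a stimulus, lay above Cap-F in both ODNcap-F mice for 9 of 16 tested and below for none, with a median difference of 0.20. The nuclear receptor Nr4a1 read 10.90 and 10.85 in Cap-F and 11.98 and 11.09 in ODNcap-F. The phosphatase Dusp1, which glucocorticoids also induce, read 12.00 and 12.11 against 12.94 and 12.32. For both genes ODNcap-F mouse 1 was the higher, and Jun, Junb, Egr1, Egr2, Egr3, Btg2 and Atf3 overlapped between the groups.

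A bright cold-inducible gene lay apart as well. Rbm3, an RNA-binding protein whose transcript accumulates when body temperature drops, was no part of a list and is named because it passed in limma with an intensity trend (adjusted p = 0.0287) and with normexp background correction (adjusted p = 0.0432). It read 13.11 and 13.03 in Cap-F and 14.20 and 14.12 in ODNcap-F, a difference of 1.09 (SE 0.10, adjusted p = 0.143 in the planned limma test). Ctrl-F was at 14.16 and 14.13 and NT at 13.08 and 12.83, so that Cap-F lay at the level of NT and ODNcap-F at that of Ctrl-F. Of its 4 probes 3 separated the groups, by 1.09 to 1.21, and the other one, the dimmest, differed by -0.06. Its relative Cirbp, looked up after Rbm3 was seen, read 10.88 and 10.92 in Cap-F and 12.13 and 11.39 in ODNcap-F (adjusted p = 0.252 in limma), and both Ctrl-F and NT were near 11.8, between 11.70 and 11.91.

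Heat shock genes split by gene and by mouse. They are driven by heat shock factor 1, which binds inverted repeats of the letters GAA in promoters. Windows of 300 bases around RefSeq start sites (GRCm38.p6) were searched for GAANNTTC, which reads the same on both strands. Of 18 tested heat shock genes 14 had a window, with 19 windows in all, and 10 of these genes held the motif in at least 1 window. Of all 32851 windows 7.86% held it, a share counted by window and not by gene. The stretches before the start sites of Hspa1a (chr17:34972229-34972284, minus strand), Hspa1b (chr17:34959311-34959366, minus strand) and Hspb1 (chr5:135887778-135887853, plus strand) are shown because these genes took opposite sides. Capitals mark the motif.
Hspa1a: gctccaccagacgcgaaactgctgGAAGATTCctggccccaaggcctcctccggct
Hspa1b: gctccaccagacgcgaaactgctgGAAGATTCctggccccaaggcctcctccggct
Hspb1: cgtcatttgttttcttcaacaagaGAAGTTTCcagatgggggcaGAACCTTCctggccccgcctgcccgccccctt

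The inducible Hsp70 genes Hspa1a and Hspa1b, whose stretches above are identical, were high in ODNcap-F mouse 2 alone. Hspa1a read 10.19 and 10.31 in Cap-F, 10.32 in ODNcap-F mouse 1 and 12.28 in mouse 2. Ctrl-F at 11.77 and 12.00 and NT at 11.97 and 11.70 were near ODNcap-F mouse 2, so that the Cap-F mice and ODNcap-F mouse 1 were the low ones. Hspa1b repeated this at 9.38 and 9.41 in Cap-F and 9.47 and 11.52 in ODNcap-F, and passed in limma without ODNcap-F mouse 1 (difference 2.13, adjusted p = 0.0459), where mouse 2 alone stands for its group and is assumed to vary like the others. Their probes may share signal, since the genes are near-identical copies. Dnajb1, their cochaperone, read 12.92 and 13.07 against 13.04 and 13.98.

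Hspb1, the small heat shock protein Hsp27 with 2 copies of the motif, went the other way. It read 14.55 and 14.81 in Cap-F and 13.19 and 14.01 in ODNcap-F (difference -1.08, SE 0.31, adjusted p = 0.275 in limma). Ctrl-F was at 13.54 and 13.86, and NT was highest at 15.37 and 15.89. Hsp90ab1, the constitutive Hsp90, read 15.96 and 16.02 against 15.44 and 15.76. Over the whole list 5 of 18 lay above and 4 below, and the median difference turned from 0.31 without ODNcap-F mouse 1 to -0.27 without mouse 2, so the list has no direction that both mice share.

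The TLR9 pathway itself was measured through 20 genes, of which 4 lay above Cap-F in both ODNcap-F mice and 9 below, with a median difference of -0.12. The receptor Tlr9 had a mean level of 9.86 in Cap-F and 9.98 in ODNcap-F, and the adaptor Myd88 read 11.61 and 11.57 against 11.67 and 11.71, differences of 0.11 and 0.10 that did not pass an unadjusted p in limma. Among the outputs, Il6, described above, lay above Cap-F in both ODNcap-F mice by both of its probes, although Ctrl-F was as high. Il12b, the p40 subunit shared by IL-12 and IL-23, read 3.92 and 3.48 in Cap-F, not well above background in either mouse, and 4.50 and 4.52 in ODNcap-F. Il12a, the p35 subunit particular to IL-12, went the other way, from 7.24 and 7.11 to 6.77 and 6.52 (adjusted p = 0.264 in limma). The related RNA sensor Tlr7 read 8.56 and 8.45 against 8.30 and 8.15, and the costimulatory receptor Cd40 read 9.12 and 8.98 against 8.87 and 8.75. Tnf read 7.59 and 7.27 against 7.11 and 7.11 by its brightest probe, but its other probe overlapped, at 7.24 and 7.01 against 7.03 and 7.13. Ifnb1 was not well above background in both mice of any group.

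Interferon-stimulated genes depended on a single mouse. Of 22 tested, 4 lay above Cap-F in both ODNcap-F mice and 2 below, and the median difference of 0.24 became 0.54 without ODNcap-F mouse 1 and -0.021 without mouse 2. Irf7, the factor that amplifies type I interferon, read 12.46 and 12.35 in Cap-F, 12.41 in ODNcap-F mouse 1 and 13.50 in mouse 2. Isg15, a ubiquitin-like modifier, repeated this at 11.90 and 11.75 against 11.75 and 12.93. The Ctrl-F mice also differed from each other, at 12.75 and 12.01 for Irf7 and 12.24 and 11.73 for Isg15. Zbp1, a sensor of Z-form nucleic acid, separated the groups by its brightest probe, at 10.12 and 9.98 against 10.65 and 10.98, but Ctrl-F was as high at 10.76 and 10.48. The other Zbp1 probe overlapped, at 8.69 and 8.73 against 8.69 and 9.14, where only ODNcap-F mouse 2 was higher. The interferon-gamma targets Cxcl9, Gbp2, Gbp3, Igtp and Irgm1 overlapped between the groups, and Iigp1 read 12.88 and 12.66 against 12.54 and 12.37.

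B cell genes lay lower in ODNcap-F. Of 17 B and plasma cell genes, 10 lay below Cap-F in both mice and 1, Sdc1, above, with a median difference of -0.11. The complement receptor Cr2, a marker of follicular and marginal zone B cells, read 11.54 and 11.64 in Cap-F and 11.08 and 10.81 in ODNcap-F (difference -0.65, SE 0.21, adjusted p = 0.314 in limma), and all 3 of its probes separated the groups. Ms4a1, which encodes CD20, read 13.30 and 13.24 against 12.96 and 12.86, and the follicle homing receptor Cxcr5 10.90 and 10.83 against 10.63 and 10.40.

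Plasma cell genes were mixed. The regulator Prdm1 and the coactivator Pou2af1 were among the 10, by -0.13 and -0.07. Jchain read 16.28 and 16.37 in Cap-F and 16.33 and 16.50 in ODNcap-F, and it overlapped between the groups, as did Mzb1 and Derl3. The Ctrl-F mice differed from each other in the B cell genes, with Ms4a1 at 13.16 and 12.70, a range that spans the ODNcap-F mice.

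The IL-17 and IL-22 list had the lowest median, -0.16, with 6 of 11 tested genes below Cap-F in both mice and 1, Il17rc, above. Il17a, the cytokine that gives the list its name, read 5.22 and 5.01 in Cap-F and 4.56 and 2.19 in ODNcap-F, where only mouse 1 was well above background. Ctrl-F at 3.92 and 2.00 and NT at 1.88 and 2.00 were not well above background, so the Il17a probe passed the filter through Cap-F alone. Ccr6, the chemokine receptor that IL-17-producing lymphocytes share with B cells, read 12.99 and 12.87 against 12.59 and 12.32. Its ligand Ccl20 was high in Cap-F mouse 1 alone, at 10.31 against 9.73 in mouse 2 and 9.76 and 9.61 in ODNcap-F. The receptor genes Il22ra1 and Extl3 overlapped, at 5.64 and 5.41 against 5.29 and 5.46 and at 12.24 and 12.20 against 12.21 and 12.12. Il22, Il17f and Il23r were not well above background in both mice of any group.

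Type 2 inflammation genes differed little as a list. Of 19 tested, 2 lay above and 4 below in both mice, and the median difference was 0.0085, between -0.010 and 0.032 with any of the 4 mice left out. The resistin-like protein Retnla read 17.12 and 17.11 in Cap-F and 17.14 and 17.02 in ODNcap-F (difference -0.04, SE 0.07), against 11.57 and 11.55 in NT. The chitinase-like protein Chil3 differed by 0.03 (SE 0.07) and the chemokine Ccl8 by 0.01 (SE 0.18), although both lay far above NT. The cytokine genes Il4 and Il5 overlapped, and Il13 read 4.87 and 4.89 against 4.73 and 4.63.

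Members that separated the groups were Arg1 and Il33 above and Tslp, Gata3, Alox15 and Il13 below. Il33, an epithelial alarmin, read 12.93 and 12.83 against 12.95 and 13.18, and Gata3, the lineage factor of type 2 lymphocytes, 11.31 and 11.26 against 11.06 and 11.04. Tslp, another alarmin, known to start type 2 responses, read 6.83 and 6.65 in Cap-F and 5.93 and 6.36 in ODNcap-F (difference -0.60, SE 0.17, adjusted p = 0.277 in limma), with Ctrl-F at 5.97 and 5.96. Arg1, an arginase known from alternatively activated macrophages, read 12.09 and 11.89 against 12.86 and 12.53, with Ctrl-F at 12.84 and 13.18. Mrc1, a mannose receptor of the macrophage list, read 12.23 and 12.23 against 12.75 and 12.74 (difference 0.52, SE 0.08, adjusted p = 0.180 in limma), again with Ctrl-F as high, at 12.60 and 12.68. With Cd163 and Mrc1 among them, 5 of 16 macrophage genes lay above and 2 below, the latter Adgre1 and C1qa, while the complement genes C1qb and C1qc and the marker Csf1r overlapped.

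Eosinophil genes did not separate the groups as a list, with 2 of 10 above and 2 below. The granule protein gene Epx read 8.34 and 8.17 in Cap-F and 8.28 and 7.82 in ODNcap-F, and Prg2 10.64 and 10.62 against 10.64 and 10.22. The chemokine receptor Ccr3 read 9.91 and 9.77 against 9.64 and 9.32, with Ctrl-F at 9.36 and 9.32. For these 3 genes and Siglecf, ODNcap-F mouse 2 was the lowest of the 4 mice.

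Mast cell proteases were split. The chymases of mucosal mast cells, Mcpt1 and Mcpt2, read 6.95 and 7.76 against 8.21 and 9.02, and 4.13 and 5.39 against 5.70 and 6.45. Mcpt2 was well above background in 1 of the 2 Cap-F mice. Mcpt4, a chymase of connective tissue mast cells, read 7.95 and 8.46 against 8.69 and 9.49 (adjusted p = 0.339 in limma). Ctrl-F was at 8.08 and 8.35 for Mcpt1, near the lower ODNcap-F mouse, and NT at 1.74 and 2.44 was not well above background. The other proteases of the list, the carboxypeptidase Cpa3, the tryptase Tpsb2 and the chymase Cma1, overlapped between the groups, as did the receptor gene Fcer1a. In all 5 of 11 genes of the list lay above and none below, with Mcpt8 and Ms4a2 as the others.

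Of 17 type 1 and cytotoxic genes 1 lay above and 4 below, and the median of -0.14 became 0.062 without ODNcap-F mouse 2. Ifng read 7.84 and 7.59 in Cap-F and 7.57 and 7.59 in ODNcap-F, and the master regulator Tbx21 8.41 and 8.33 against 8.43 and 8.18. The only member past an unadjusted p and 2-fold was Il12rb2, a subunit of the IL-12 receptor, at 3.57 and 4.15 against 2.37 and 3.33, but it was well above background in 1 Cap-F mouse and in no ODNcap-F mouse. In the list of regulatory T cell and IL-10 genes 2 of 12 lay above and 5 below. Il10 read 6.07 and 5.75 against 6.23 and 6.37 (difference 0.39, SE 0.12, adjusted p = 0.288 in limma), with Ctrl-F mice at a mean of 6.16, while the lineage factor Foxp3 read 6.48 and 6.34 against 6.33 and 6.03.

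Airway epithelial genes differed more between the Cap-F mice than between the groups. Mucous cell genes had a median difference of 0.40, but leaving out Cap-F mouse 2 made it 0.997 and leaving out mouse 1 made it -0.081, and only Creb3l1 of 13 lay above Cap-F in both ODNcap-F mice. Muc5ac, the mucin of allergic airways, read 9.99 in Cap-F mouse 1, 11.79 in Cap-F mouse 2, and 10.88 and 11.71 in ODNcap-F. Muc5b read 13.92 and 15.18 against 14.68 and 15.32. Cap-F mouse 2 exceeded mouse 1 by a median of 1.25 over the mucous list and of 0.65 over the 14 ciliated cell genes, whose median difference went from 0.67 without Cap-F mouse 2 to -0.089 without mouse 1. The ciliary regulator Foxj1 read 9.66 and 10.47 against 10.22 and 10.73. Of the club cell genes none of 9 lay above and 1, Cbr2, below, at 17.06 and 17.23 against 16.81 and 17.06.

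**Figure D4:**
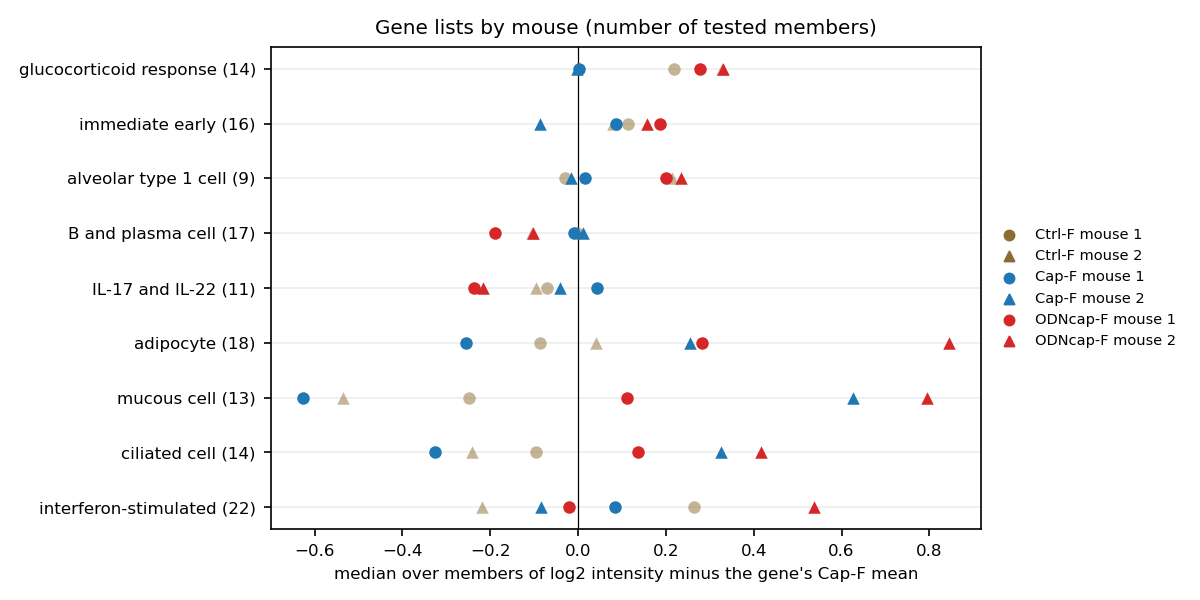
Median over a list's tested members of the log2 intensity minus the gene's Cap-F mean (x axis), for each Ctrl-F (brown), Cap-F (blue) and ODNcap-F (red) mouse. The blue symbols lie close together for the glucocorticoid response, alveolar type 1 and B cell lists. They lie far apart for the adipocyte, mucous and ciliated lists. For the interferon-stimulated genes ODNcap-F mouse 2 lies highest, and the Ctrl-F mice also lie apart from each other.

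Adipocyte genes had the highest median of the lists described, 0.56, with 10 of 18 above Cap-F in both mice and none below. Leaving out Cap-F mouse 1 gave a median of 0.22, and leaving out mouse 2 gave 0.93. Pck1, named above, is among them. Fabp4, the fatty acid carrier of fat cells that macrophages and capillaries also make, read 10.24 and 10.78 in Cap-F and 11.18 and 11.59 in ODNcap-F (adjusted p = 0.247 in limma), and Adig 5.82 and 6.59 against 7.13 and 7.61. The defining fat cell genes were split by mouse: Adipoq read 3.39 and 6.17 in Cap-F against 6.03 and 7.12, and Cfd 7.38 and 10.56 against 10.11 and 11.10. In Cap-F mouse 1 the 16 cardiac muscle genes were low too, by a median of 1.72 below mouse 2, and their part in these differences was not tested. Lpl and Lep overlapped.

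Alveolar type 1 cells, the thin cells of gas exchange, gave a small difference that no single mouse set. Of 9 tested markers 7 lay above Cap-F in both ODNcap-F mice and none below, with a median of 0.17, between 0.19 and 0.23 with any of the 4 mice left out. Pdpn read 13.91 and 13.73 against 14.24 and 14.26 (difference 0.43, SE 0.09, adjusted p = 0.222 in limma), Spock2 11.25 and 11.12 against 11.55 and 11.56, and Igfbp2 differed most, with group means of 9.98 against 10.64. The defining marker Ager read 16.16 and 16.11 against 16.23 and 16.37. Ctrl-F mice were at 14.11 and 14.23 for Pdpn, and all challenged groups lay below NT, which was at 14.48 and 14.59.

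Alveolar type 2 genes differed by -0.14 to 0.14 (median 0.021), with 3 of 11 above and none below. Among 14 endothelial genes 4 lay above and 2 below. Gpihbp1, which anchors lipoprotein lipase on capillaries, read 12.56 and 12.68 against 13.06 and 13.06, and Ednrb, the endothelin receptor of aerocytes, 7.82 and 8.10 against 8.34 and 8.43, while the pan-endothelial Pecam1 and Cdh5 overlapped.

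Among 16 extracellular matrix genes 4 lay above and 3 below. Timp1, an inhibitor of matrix metalloproteinases, read 13.88 and 13.70 in Cap-F and 14.42 and 14.45 in ODNcap-F (difference 0.65, SE 0.12, adjusted p = 0.203 in limma), with Ctrl-F at 14.40 and 14.62 and NT at 9.45 and 9.24. Collagen Col1a2 went the other way, 14.48 and 14.56 against 14.22 and 14.27. Smooth muscle genes had 1 of 13 above and 2 below, and the contractile genes Acta2 and Myh11 overlapped.

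Of 12 tested retinoid genes 2 lay above and 4 below, near the shares of all genes, and none passed an unadjusted p over 2-fold. Cyp26b1, which degrades retinoic acid, read 11.96 and 11.01 in Cap-F and 10.13 and 9.75 in ODNcap-F (difference -1.55, SE 0.64, adjusted p = 0.376 in limma), with Ctrl-F lower still at 9.30 and 8.88. Lrat, which esterifies retinol for storage, read 9.10 and 8.91 against 8.42 and 8.26, with Ctrl-F at 7.88 and 7.84. Aldh1a3, a retinoic acid synthesizing enzyme, read 8.23 and 8.66 against 8.86 and 9.50.

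Of 6 aryl hydrocarbon receptor targets 3 lay above and 1 below. The quinone reductase Nqo1 read 5.52 and 5.72 against 6.14 and 6.13, and Cyp1a1, the best-known target, overlapped at 4.72 and 4.53 against 4.48 and 5.09. Clock genes had no common side, with 3 of 17 above and 4 below: the repressor Nr1d1 read 7.80 and 6.77 against 8.01 and 8.18, and the output factor Hlf 7.57 and 7.53 against 6.93 and 7.30. Of 16 cell cycle genes 8 lay above and 2 below, but the median was 0.036, and the proliferation marker Mki67 read 13.09 and 13.13 against 13.10 and 13.17.

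Among the remaining marker lists, fast skeletal muscle genes lay more often above Cap-F than below. Their median difference was 0.079, and between 0.019 and 0.23 with any mouse of the comparison left out. In the other lists few genes separated the groups. Basal cell genes had 1 of 6 above, which was Krt15, and 1 below, red blood cell genes 2 of 9 above and none below, fast skeletal muscle genes 5 of 11 above and 1 below, mesothelial genes 2 of 7 above and none below, and the 3 tested airway cartilage genes overlapped. The median over the mesothelial list was 0.34 without Cap-F mouse 1 and -0.14 without mouse 2.

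**Figure D5:**
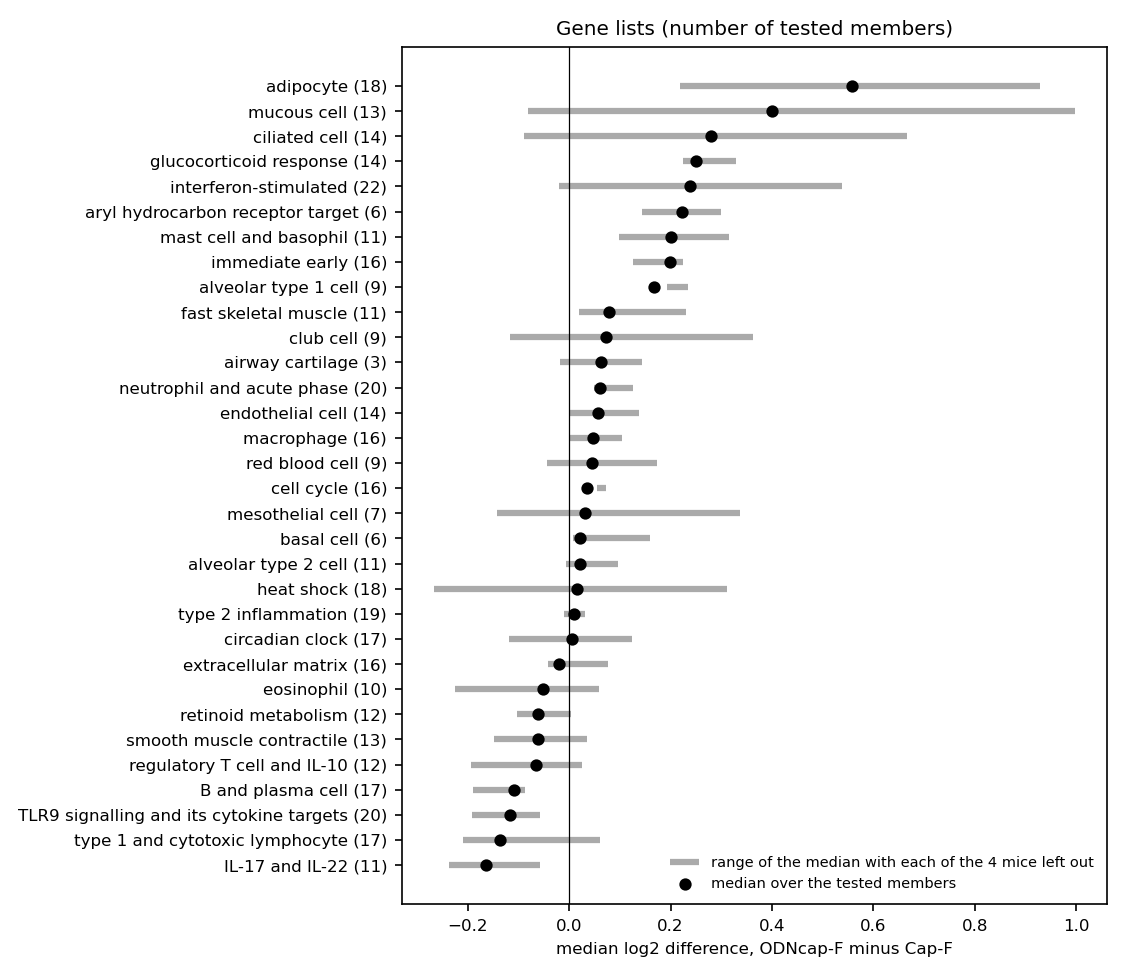
Median log2 difference between ODNcap-F and Cap-F over the tested members of each gene list (black points) and the range of that median with each of the 4 mice left out (grey bars). Bars stay above 0 for the glucocorticoid response, immediate early, alveolar type 1, adipocyte, mast cell and basophil, and aryl hydrocarbon receptor lists. They also do so for the fast skeletal muscle, cell cycle, neutrophil and acute phase, endothelial and basal cell lists. The B cell, TLR9 and IL-17 and IL-22 lists keep their bars below 0, while those of the mucous, ciliated, interferon-stimulated and heat shock lists cross 0.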

How the data were processed

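Lung RNA of 8 mice was labeled with Cy3 and hybridized to single-color arrays. The authors deposited the background-subtracted intensity of each spot with flags and raw median intensities (Agilent Feature Extraction 11.0, per the labels), and a table of log2 values for 32312 probes after log transformation and quantile normalization. Here the intensities were used. Control spots were dropped (59305 spots left), 792 spots flagged as outliers were set to missing, no spot was saturated, and log2 values were averaged into 56605 probes and quantile normalized over 8 arrays. A probe was kept if some group had it well above background in both mice (37116 probes), and the brightest stands for a gene. RefSeq names matched 58.3% of probes. A difference from a group not well above background is given as "at least", against the lowest signal well above background on each array.

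A limma fit (3.58.1, R 4.3.3) held all 8 arrays in 4 groups without covariates, with 4 residual degrees of freedom, a prior of 1.87 and a prior SD of 0.100. It was tested on simulated data. The number of arrays limits the precision. The 15 named genes each way had a RefSeq symbol, both ODNcap-F mice on 1 side, an unadjusted p under 0.05 and a signal well above background in both mice of the higher group, and cardiac genes and Reg3g were left out. Some genes, 1 of the 30 named and some list members among them, are counted but not reported here. The comparison, the 33 gene lists and the rules were chosen with earlier results of these data known. Alternatives were 75th percentile scaling, normexp (offset 50), the deposited log2 table, other filters, a replicate block, an intensity trend, only 4 arrays, each array left out, the mean of a gene's probes and the local-pooled-error test (100 bins, spline of 10 degrees of freedom). That nothing says whether the mice were separate cage groups limits what the p-values cover.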

Additional observations from a re-analysis of the deposited data

How the results depend on the processing

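The count of genes past the adjusted p in limma, 1 as reported, was 2 with normexp background correction, 0 on the deposited log2 table, 9 without a filter, 0 with only probes above background on all arrays and 0 with only the 4 arrays compared, and from 1 to 7 with each array left out (7 without ODNcap-F mouse 1, 5 without ODNcap-F mouse 2 and 2 without either NT mouse). With the local-pooled-error test it was 101 on the same values and 56 on the deposited ones. The count of higher genes at an unadjusted p, 95, became 10 with normexp, 19 on the deposited table, 273 without a filter, 19 with only probes above background on all arrays and 38 by the local-pooled-error test of the deposited values, and ranged from 79 to 287 with each array left out. The count of lower genes, 89, became 7, 24, 274, 23 and 25 under the same alternatives and ranged from 83 to 212. The cause of these shifts was not tested, except that the filters change the number of genes.

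The replicate block gave 1 gene past the adjusted p, 100 higher and 96 lower genes, and changed no call of a named gene. The mouse numbers are only names: deviations of same-numbered mice correlated by 0.171 between Cap-F and ODNcap-F and by -0.0084 to 0.0658 in the other pairs of groups. Unc13a passed without either ODNcap-F mouse and Cst8 without ODNcap-F mouse 2, but against values not well above background, so that these calls support nothing. None of the 30 named genes turned its direction, and 11 of them had a value on the deposited table. Over the 32 lists described, the sign of the median turned in 1 with 75th percentile scaling (extracellular matrix, 0.061), in 2 with normexp and in 4 to 7 with a mouse of the comparison left out. The median over all genes moved from -0.0089 to 0.0104 with 75th percentile scaling. Signal over background limits the low genes: 9 of the 15 higher and 2 of the 15 lower named genes have only a bound.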
